A study of Rattus norvegicus with 40 samples.

Results

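The genes described here are 10 genes that mark the epithelium of the choroid plexus, followed through 40 arrays of rat hippocampus from a study of developmental lead exposure. A gene was represented by the probe set whose only symbol in the platform's probe table was that gene. Of the 10 genes, 9 had such a probe set, 1 each: Ttr (10800426), Kl (10759762), Aqp1 (10855701), Clic6 (10750296), Folr1 (10724116), Kcne2 (10750286), Kcnj13 (10929656), Sostdc1 (10884274) and Enpp2 (10903736). They are 9 of the 14506 genes that could be followed in this way. Otx2, a homeobox transcription factor of the choroid plexus, is not analysed here.

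Hippocampal RNA, 100 ng per sample, was hybridised to Affymetrix arrays, and the signals are log2 values, so that a difference of 1 is a doubling. The 10 groups held 4 arrays each, and all rats were killed at postnatal day 55. Male and female controls ate chow without lead. Perinatal groups came from dams fed chow with 250 or 750 ppm lead acetate, beginning 10 days ahead of mating and ending at weaning, after which the pups ate control chow. Postnatal groups received 250 or 750 ppm from birth to day 45 and control chow afterwards. Each sex thus has a control group and 4 exposed groups, and 1 control group per sex serves both windows. The strain, the litters and the window in which control chow was counted are not given in the sources used here, so the p-values measure the spread between these samples only.

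The choroid plexus is a frond of epithelium and vessels that hangs into the brain ventricles and secretes cerebrospinal fluid. Its epithelial cells make transthyretin, the carrier of thyroid hormone in that fluid, and move water, ions and folate across the blood to fluid barrier. In the lateral ventricle the plexus is attached along the edge of the hippocampus, at the fimbria, so that a dissected hippocampus can carry some of it. Within a bulk sample, fewer cells of a type and less RNA per cell cannot be told apart.

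RefSeq's promoter table (build GRCr8) held 4 of the 9 genes, and a stretch of each of the 4 is given below. Whether these sequences bear on how the genes varied was not tested. The letters read 5′ to 3′ on the gene's strand, and capitals mark a TATA box. The first is the 250 bases before the start of Aqp1 on the forward strand, chr4:85812534-85812783, and the second the 250 bases before the start of Kl on the forward strand, chr12:5325753-5326002. The third is 30 bases upstream of the Kcnj13 start on the reverse strand, chr9:95519015-95519044, and the last the 30 bases before the Ttr start on the forward strand, chr18:12218728-12218757. The windows of Kcnj13 and Ttr lie inside the annotated span of those genes, upstream of the start the table uses.
Aqp1: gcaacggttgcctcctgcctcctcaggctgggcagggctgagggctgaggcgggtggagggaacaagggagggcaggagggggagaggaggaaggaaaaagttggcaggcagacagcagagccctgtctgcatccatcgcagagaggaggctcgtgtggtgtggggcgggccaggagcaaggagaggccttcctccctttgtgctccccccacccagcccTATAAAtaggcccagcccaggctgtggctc
Kl: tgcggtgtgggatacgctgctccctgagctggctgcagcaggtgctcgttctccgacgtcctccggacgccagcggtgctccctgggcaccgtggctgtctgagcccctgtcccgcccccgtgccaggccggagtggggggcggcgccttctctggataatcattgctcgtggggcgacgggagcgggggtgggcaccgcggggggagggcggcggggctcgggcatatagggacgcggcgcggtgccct
Kcnj13: cctcacggacatTATAAAcacaggaatgta
Ttr: ctttgttgactaagtcaataatcagaatca
Over the 250 bases before the start, G and C made up 73.2% of Kl, 65.2% of Aqp1, 46.8% of Kcnj13 and 40.4% of Ttr, against a median of 51.2% over 33469 promoters. TATAAA was found on either strand in 2 of the 4, in Aqp1 at bases 30 to 25 before the start and in Kcnj13 at bases 46 to 41, and in 12.9% of all promoters. CCAAT was found in 1 of the 4, Kcnj13, which held it on both strands, and in 34.0% of all. Neither TAATCC, a motif bound by OTX factors (6.3% of all promoters), nor GTAAACA, a forkhead motif (3.2%), was in any of the 4 windows. Only exact matches to these strings were sought. Sites of variant sequence, or beyond the start that the table uses, would be missed, so the lack of a match is not the lack of a site. No match overlapped another. These matches describe these windows only.

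Several arrays were marked as doubtful. The X-linked transcript Eif2s3 lay between 11.15 and 11.42 in exposed males and between 11.62 and 11.77 in exposed females, and 3 control arrays went against their label: Male control 4, Female control 1 and Female control 3. A further 3 arrays, called compressed here, were those of lowest slope on the mean array, a number fixed by rule. Their slope minus 1 was -0.0191, -0.0314 and -0.0325 (Male 250 ppm perinatal 1 and 3 and Male 750 ppm perinatal 1). The next lowest was -0.0132 (Male control 2) and the highest 0.0180 (Female 750 ppm perinatal 4), so the first of the 3 did not stand clear of the rest. Array medians were close, from 6.96 to 7.06, and any 2 arrays correlated at 0.985 to 0.997 over all probe sets. The hippocampal markers Prox1, of dentate granule cells, at 9.61 to 10.02, and Cpne4, at 10.63 to 10.99, were high and even in all 40 arrays. Grp, of the same list, ran more widely, from 8.17 to 9.62.

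The 9 choroid plexus genes largely rose and fell together from array to array. Arrays above and below the widest gap in Ttr (11.06 to 12.34) were present in 9 of the 10 groups. Other genes stepped less clearly there: from 8.68 to 8.87 for Kcnj13, 7.35 to 7.55 for Aqp1 and 6.86 to 7.78 for Kl, while Kcne2 overlapped. Some arrays above the gap were thus intermediate. Ttr ran from 7.69 to 13.55, a 58.2-fold range, while the summed signal of 12 hippocampal neuron genes ran from 14.06 to 14.26. Among those 12 the widest single range was 1.45 log2 units, for Grp, against 5.86 for Ttr. No difference between exposed and control rats, between doses, windows or sexes passed the test for any of the 9 genes. The perinatal groups had the lowest 4 means for each gene over all arrays, and for 2 of the 9 genes (Aqp1, Kcne2) without the 3 compressed arrays.

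Ttr was 13.37, 10.97, 13.50 and 11.06 in Male controls, 10.83, 12.34, 10.03 and 13.33 after perinatal 250 ppm, and 7.69, 10.29, 12.90 and 12.78 after perinatal 750 ppm. In males exposed after birth it was 13.27, 13.23, 13.53 and 12.46 at 250 ppm and 13.25, 13.38, 9.87 and 13.42 at 750 ppm. The Male 250 ppm postnatal group was the one group with no low array, and every other male group spread over more than 2 log2 units. Ttr in females was 8.61, 13.35, 13.28 and 13.29 in controls, 9.26, 9.71, 13.17 and 9.44 after perinatal 250 ppm, and 13.38, 12.67, 9.48 and 9.50 after perinatal 750 ppm. Females exposed after birth had 12.45, 13.17, 13.55 and 8.68 at 250 ppm and 9.16, 13.49, 13.19 and 13.19 at 750 ppm. Each exposed group overlapped the controls of its sex.

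**Figure D1:**
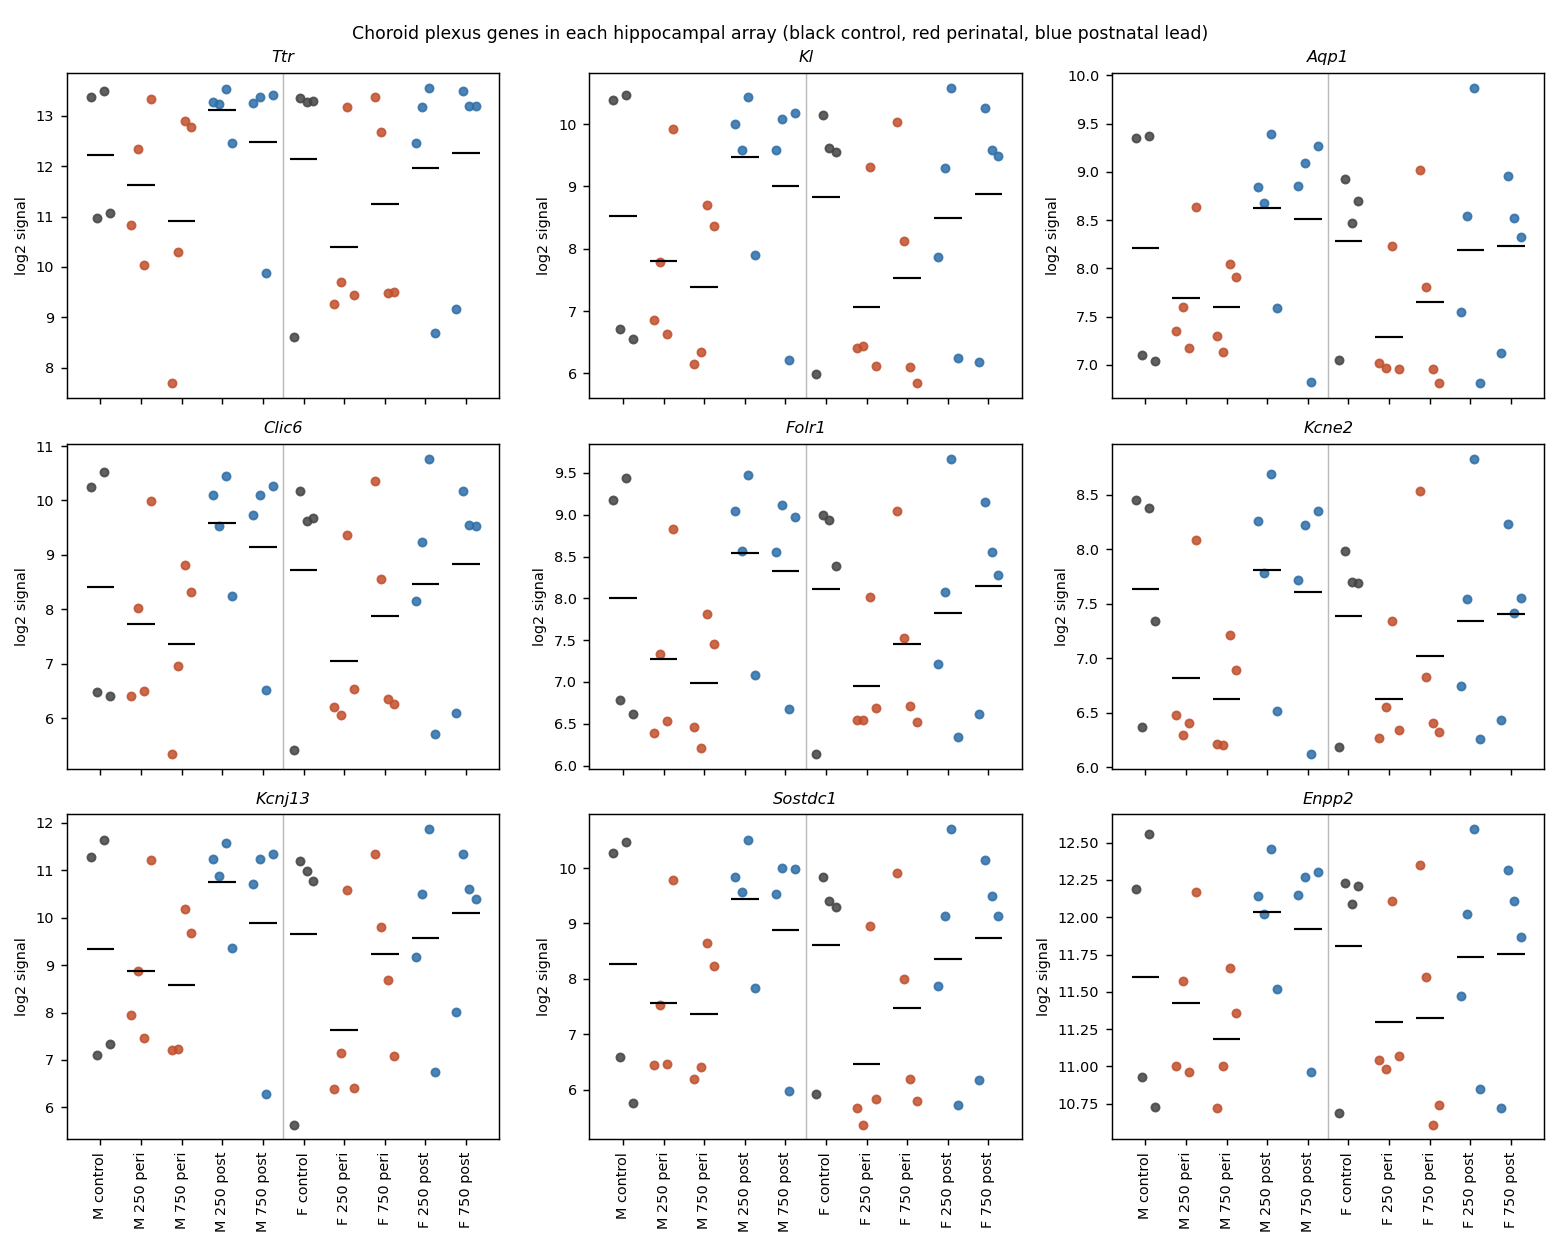
Log2 signal of each of the 9 genes in single arrays (points) by group, with 4 arrays per group and a bar at the group mean; control groups are black, perinatal red and postnatal blue, males to the left of the line. In Male 250 ppm postnatal rats Ttr stays between 12.46 and 13.53, while the 9 other groups hold both high and low arrays.

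Sorted by Ttr, the arrays fell on the sides of a gap from 11.06 to 12.34. That gap of 1.28 was the widest between neighbouring arrays, ahead of 0.92 for the next. Above it lay 25 arrays and below it 15. The arrays above were 5 of 8 controls, 7 of 16 perinatal and 13 of 16 postnatal. By group they were 4 of 4 in Male 250 ppm postnatal rats, 3 in each other postnatal group and in Female controls, 2 in Male controls, Male perinatal at either dose and Female 750 ppm perinatal, and 1 in Female 250 ppm perinatal rats. All 3 compressed arrays lay below the gap, as did 2 of the 3 controls at odds with their label (Male control 4 and Female control 1).

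Kcnj13, an inward rectifier potassium channel of the epithelium's apical face, had the widest range of the 9, from 5.64 to 11.86 or 74.6-fold. It was 11.28, 7.10, 11.64 and 7.33 in Male controls, 7.95, 8.87, 7.46 and 11.21 after perinatal 250 ppm and 7.21, 7.23, 10.18 and 9.68 after perinatal 750 ppm. Postnatal males had 11.23, 10.87, 11.58 and 9.35 at 250 ppm and 10.71, 11.23, 6.28 and 11.34 at 750 ppm. The arrays low in Ttr were those low in Kcnj13, without overlap. In females Kcnj13 was 5.64, 11.19, 10.99 and 10.76 in controls, 6.39, 7.15, 10.59 and 6.40 after perinatal 250 ppm and 11.34, 9.81, 8.68 and 7.08 after perinatal 750 ppm. Postnatal females had 9.16, 10.49, 11.86 and 6.75 at 250 ppm and 8.01, 11.34, 10.61 and 10.40 at 750 ppm. The 8.68 of Female 750 ppm perinatal 3 was the highest of the arrays below the Ttr gap, close under the 8.87 that was lowest above it.

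Kl encodes klotho, a membrane protein that is shed into the fluid as a hormone. Its values were 10.38, 6.71, 10.46 and 6.55 in Male controls, 6.86, 7.78, 6.63 and 9.92 after perinatal 250 ppm, 6.15, 6.35, 8.71 and 8.36 after perinatal 750 ppm, 10.00, 9.58, 10.44 and 7.90 after postnatal 250 ppm and 9.58, 10.09, 6.21 and 10.18 after postnatal 750 ppm. In females they were 5.99, 10.15, 9.61 and 9.55 in controls, 6.40, 6.44, 9.31 and 6.11 after perinatal 250 ppm, 10.03, 8.13, 6.10 and 5.84 after perinatal 750 ppm, 7.87, 9.29, 10.58 and 6.24 after postnatal 250 ppm and 6.18, 10.26, 9.58 and 9.49 after postnatal 750 ppm. The 15 arrays below the Ttr gap held Kl within 1.02 log2 units (5.84 to 6.86), and the 25 above it spread over 2.80 units (7.78 to 10.58).

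Among the other secreted products, Sostdc1, an antagonist of BMP and Wnt signalling, ran from 5.37 to 10.70 with a median of 8.43, a 40.3-fold range. Sostdc1 was 9.83, 9.56, 10.50 and 7.84 in Male 250 ppm postnatal rats, the group of highest mean, and 5.66, 5.37, 8.95 and 5.84 in Female 250 ppm perinatal rats, the group of lowest mean. Enpp2, or autotaxin, which makes lysophosphatidic acid, ran only from 10.61 to 12.59, a 3.9-fold range, around a median of 11.63. Enpp2 nevertheless split at the Ttr gap without overlap, lying between 10.61 and 11.07 below it and between 11.36 and 12.59 above it. It is also made outside the plexus, in oligodendrocytes.

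The channels and the carrier for folate followed the same arrays. Aqp1, the water channel of the apical membrane, ran from 6.81 to 9.87 (8.3-fold) around a median of 7.98. Clic6, of the family of intracellular chloride channels, ran from 5.34 to 10.77 (43.1-fold) around 8.69. Folr1, the folate receptor by which the plexus passes folate into the fluid, ran from 6.14 to 9.67 (11.6-fold) around 7.67. Each of these 3 genes was lower in all 15 arrays below the Ttr gap than in any of the 25 above it. Female 250 ppm postnatal 3 was the highest array for all 9 genes.

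Kcne2, an accessory subunit of potassium channels, was the exception at the gap. It ran from 6.12 to 8.83 (6.5-fold) around a median of 7.27, and 9 arrays below the gap exceeded the lowest array above it. In RefSeq's gene order Kcne2 and Clic6 lie on 1 chromosome with 5 protein-coding genes between them. Male controls had 8.45, 6.37, 8.38 and 7.34 for Kcne2, and the 7.34 belongs to array 4, in which the other 8 genes were low (Clic6 6.41, Sostdc1 5.76). That array is 1 of the 3 at odds with its sex label, and it also had Tph1, the tryptophan hydroxylase of tissues other than serotonin neurons, at 12.29 against at most 7.39 in the other 39 arrays. The part of that array's make-up in its Kcne2 value was not tested.

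The spread of these genes inside groups was among the widest on the array. The standard deviation pooled over the 10 groups was 1.98 for Kcnj13, 1.90 for Ttr, 1.84 for Clic6 and 1.79 for Sostdc1, which ranked 1, 2, 3 and 4 of 29214 probe sets. Kl followed at 1.74 (rank 6), Folr1 at 1.15 (15), Aqp1 at 0.94 (21), Kcne2 at 0.88 (23) and Enpp2 at 0.67 (48). The median was 1.74 over the 9 genes and 0.129 over all probe sets. Groups accounted for 17.7% (Ttr) to 22.7% (Sostdc1) of the variance over the 40 arrays, and the rest lay between arrays of a group. With 10 groups, shares of about this size arise without any group difference. Limma's moderated F over the groups was 0.833 (Ttr) to 1.139 (Sostdc1).

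**Figure D2:**
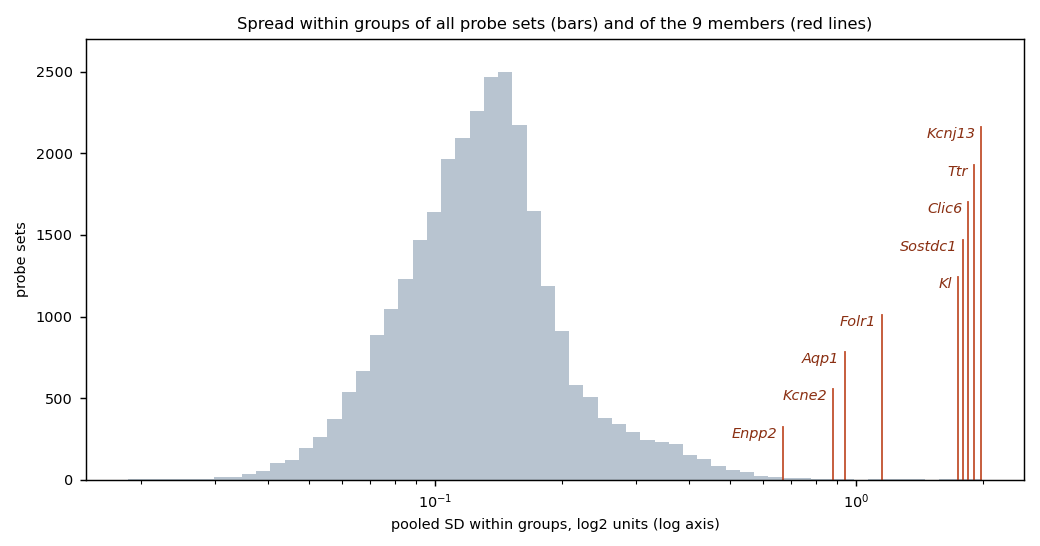
Number of probe sets (vertical axis) by pooled standard deviation within groups (log2 units, log axis), with red lines at the 9 genes. The 9 lines lie at 0.67 and above, against a median of 0.129 for all 29214 probe sets.

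Of the 20 genes of widest spread within groups, 8 were genes of this set. Others among the 20 were Mfrp (1.77), a frizzled-related membrane protein, Cldn2 (1.71), the claudin of leaky epithelial tight junctions, F5 (1.62), coagulation factor V, and Slc4a5 (1.57), a bicarbonate transporter. Glycam1 (1.45), Cltrn (1.25), Tmem72 (1.22), Tph1 (1.13), Prlr (1.09), the prolactin receptor, Pla2g5 (0.95), Slc13a4 (0.92), a sulfate transporter, and Ace (0.83), the angiotensin converting enzyme, completed it. The spread of Tph1 rests on Male control 4, without which it was 0.55.

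How the 9 genes varied together was examined on each side of the Ttr gap, since a single correlation over both clusters would mostly restate the gap. Over the 25 arrays above it, each of the other 8 genes rose with Ttr, with Pearson r from 0.92 (Aqp1) to 0.98 (Kl, Kcnj13) and Spearman rho from 0.95 to 0.98. The permutation p was 1.0e-05 for each (two-sided, 100000 permutations, the smallest they can give), and 2.0e-05 after Benjamini-Hochberg adjustment over 16 correlations. Without the 2 arrays farthest from the median of Ttr, r was 0.91 to 0.98. Over all 36 pairs of the 9 genes, r above the gap was 0.92 to 0.99 with a median of 0.97.

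The genes spanned unequal ranges above the gap: 3.17 log2 units for Sostdc1, 2.99 for Kcnj13, 2.80 for Kl, 2.75 for Clic6, 2.59 for Folr1, 2.54 for Kcne2, 2.31 for Aqp1 and 1.23 for Enpp2. Ttr spanned 1.21 units there and 3.37 units below the gap. It reached 13.55, where the highest value of any probe set in any of the 40 arrays was 13.93. Whether the Ttr signal is compressed near that top was not tested, so no rate of change per unit of Ttr is given.

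Over the 15 arrays below the gap Clic6 (r = 0.79, rho = 0.71, adjusted permutation p = 7.6e-04 for r and 0.0075 for rho) and Kl (r = 0.69, rho = 0.68, adjusted permutation p = 0.00637 and 0.00954) passed the test. Kcne2 (r = 0.54, adjusted permutation p = 0.0595), Enpp2 (0.37, 0.239), Folr1 (0.31, 0.304), Sostdc1 (0.31, 0.304), Kcnj13 (0.28, 0.343) and Aqp1 (0.11, 0.697) did not. Without the 2 arrays farthest from the median of Ttr, r was 0.73 for Clic6, 0.74 for Kl, 0.66 for Sostdc1, 0.55 for Aqp1 and 0.28 to 0.47 for the rest. Taken on deviations from the group means in place of values, the median r of the 8 genes with Ttr was 0.67 below the gap and 0.78 above it. The values gave 0.34 and 0.95. Those group means draw on arrays from both sides, so the gap enters the deviations. They cannot show how far the contrast between the sides depends on the measure. All 36 pairs ran from -0.30 to 0.79 on the values below the gap, with a median of 0.31. Spans there were 0.46 log2 units for Enpp2, 0.54 for Aqp1, 0.65 for Folr1, 1.02 for Kl, 1.22 for Kcne2 and Sostdc1 and 1.62 for Clic6, and 3.04 and 3.37 for Kcnj13 and Ttr.

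**Figure D3:**
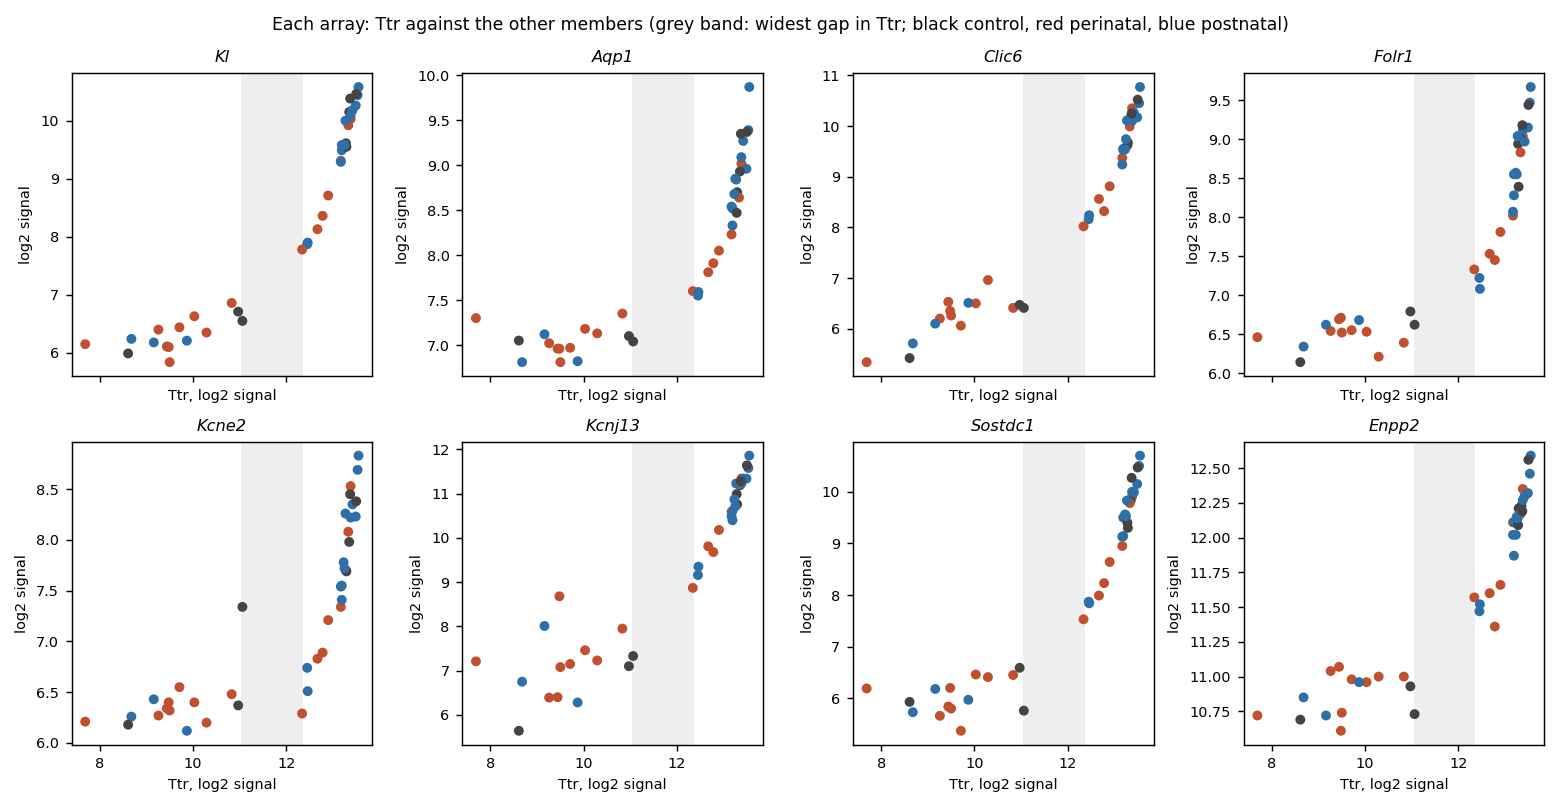
Each panel plots 1 gene (vertical axis, log2 signal) against Ttr (horizontal axis, log2 signal) over the 40 arrays; the grey band is the gap in Ttr from 11.06 to 12.34, and colours are black for control, red for perinatal and blue for postnatal. Above the band r is 0.92 to 0.98 and below it 0.11 to 0.79.

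For the order of the groups, mean Ttr (± SD, n = 4) ran from 10.40 ± 1.86 in Female 250 ppm perinatal rats through 10.92 ± 2.47 (Male 750 ppm perinatal), 11.26 ± 2.06 (Female 750 ppm perinatal) and 11.63 ± 1.48 (Male 250 ppm perinatal). Next came Female 250 ppm postnatal rats at 11.96 ± 2.23, Female controls at 12.13 ± 2.35 and Male controls at 12.22 ± 1.40. Female 750 ppm postnatal rats had 12.26 ± 2.07, Male 750 ppm postnatal 12.48 ± 1.74 and Male 250 ppm postnatal 13.12 ± 0.46. The widest step between neighbours was 0.64, against a pooled SD of 1.90, so no neighbouring groups differed beyond their spread.

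Over all arrays the 4 perinatal groups had the lowest 4 means for each of the 9 genes, and Male 250 ppm postnatal rats the highest. Without the 3 compressed arrays, which leaves 2 in the Male 250 ppm perinatal group, that group's mean Ttr was 12.83, above both control groups, and it left the lowest 4 for 7 of the 9 genes; Male 250 ppm postnatal rats remained highest for all 9. With all arrays kept, Female 250 ppm perinatal rats were lowest for 7 genes and Male 750 ppm perinatal rats for Kcne2 and Enpp2. Without the compressed arrays, Female 250 ppm perinatal rats were lowest for all 9. The largest span of means was 3.12, for Kcnj13, from 7.63 to 10.76. No neighbouring means of any gene lay further apart than its pooled SD (the widest step was 0.94, for Kcnj13, against 1.98). Since the 9 genes moved together, their like orders repeat 1 pattern. The moderated F test over the 10 groups (limma, Benjamini-Hochberg adjustment over 29214 probe sets) gave adjusted p of 0.689 (Sostdc1) to 0.814 (Ttr), and 0.654% of all probe sets passed it.

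The first comparison of the design was each exposed group with controls of the same sex label. None of the 9 genes passed limma's test at an adjusted p under 0.05 in any of the 8 contrasts, and none had an unadjusted p under 0.05, where 6.13% of all tests did. The share of all probe sets that passed was 0.089% for Male 250 ppm perinatal, 0.0582% for Male 750 ppm perinatal, 0.0342% for Male 250 ppm postnatal and 0.0445% for Male 750 ppm postnatal rats. For females it was 0.0171% at 250 ppm and 0.157% at 750 ppm perinatally, and 0.0171% and 0.0137% postnatally. With such shares the lack of a call among 9 genes carries little information, and the standard errors below give the precision.

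After perinatal exposure all 9 differences lay below 0 in all 4 groups, with medians of -0.68 (Male 250 ppm), -1.01 (Male 750 ppm), -1.68 (Female 250 ppm) and -0.67 (Female 750 ppm), while the median of all probe sets was 0.001 to 0.018. The Male 250 ppm direction rests on the compressed arrays: without them the Male 250 ppm median was 0.33, with 7 of 9 genes above 0 and Ttr at 0.61, and the Male 750 ppm median was -0.51, with Ttr at -0.23. Over all arrays the Ttr differences were -0.59, -1.31, -1.73 and -0.87, each with a standard error of 1.24 (limma's adjusted p of 0.977, 0.839, 0.992 and 0.978). In Female 250 ppm perinatal rats, Sostdc1 at -2.16 and Kcnj13 at -2.01 were the 2 largest differences of the whole array, and neither passed. There the 4 exposed values of Sostdc1 (5.37 to 8.95) overlapped those of controls (5.93 to 9.83). An exact permutation test of 4 against 4 arrays gave 0.0571 for Sostdc1 and Aqp1, the smallest of 189 tests of these genes, where the design allows 0.0286.

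After postnatal exposure the differences were smaller or of the other sign. In Male 250 ppm rats all 9 lay above 0, from 0.17 (Kcne2) to 1.42 (Kcnj13), with a median of 0.90. Medians were 0.32 in Male 750 ppm, -0.17 in Female 250 ppm and 0.05 in Female 750 ppm rats. Ttr differed by 0.90, 0.26, -0.17 and 0.13 in the same order (standard error 1.24 each, limma's adjusted p of 0.963 to 1). Without the 3 controls at odds with their label, postnatal Ttr differed by 0.51 and -0.13 in males and by -1.35 and -1.06 in females at 250 and 750 ppm, and perinatal Ttr by -0.98 and -1.69 in males and by -2.92 and -2.06 in females, still with no call (smallest adjusted p of the 9 genes 0.683, limma). Pooled over all 8 exposed groups, a contrast added after these had been seen, the 9 genes differed from controls by between -0.47 (Kl) and -0.12 (Enpp2), with no call (smallest adjusted p = 0.915, limma) where 0.38% of all probe sets passed. For Ttr that difference was -0.42, and it was -1.21 without the 3 controls at odds with their label, -1.01 without Female control 1 alone and -0.14 without the compressed arrays. The 8 contrasts share 2 control groups, so they are not 8 separate sightings of a pattern.

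**Figure D4:**
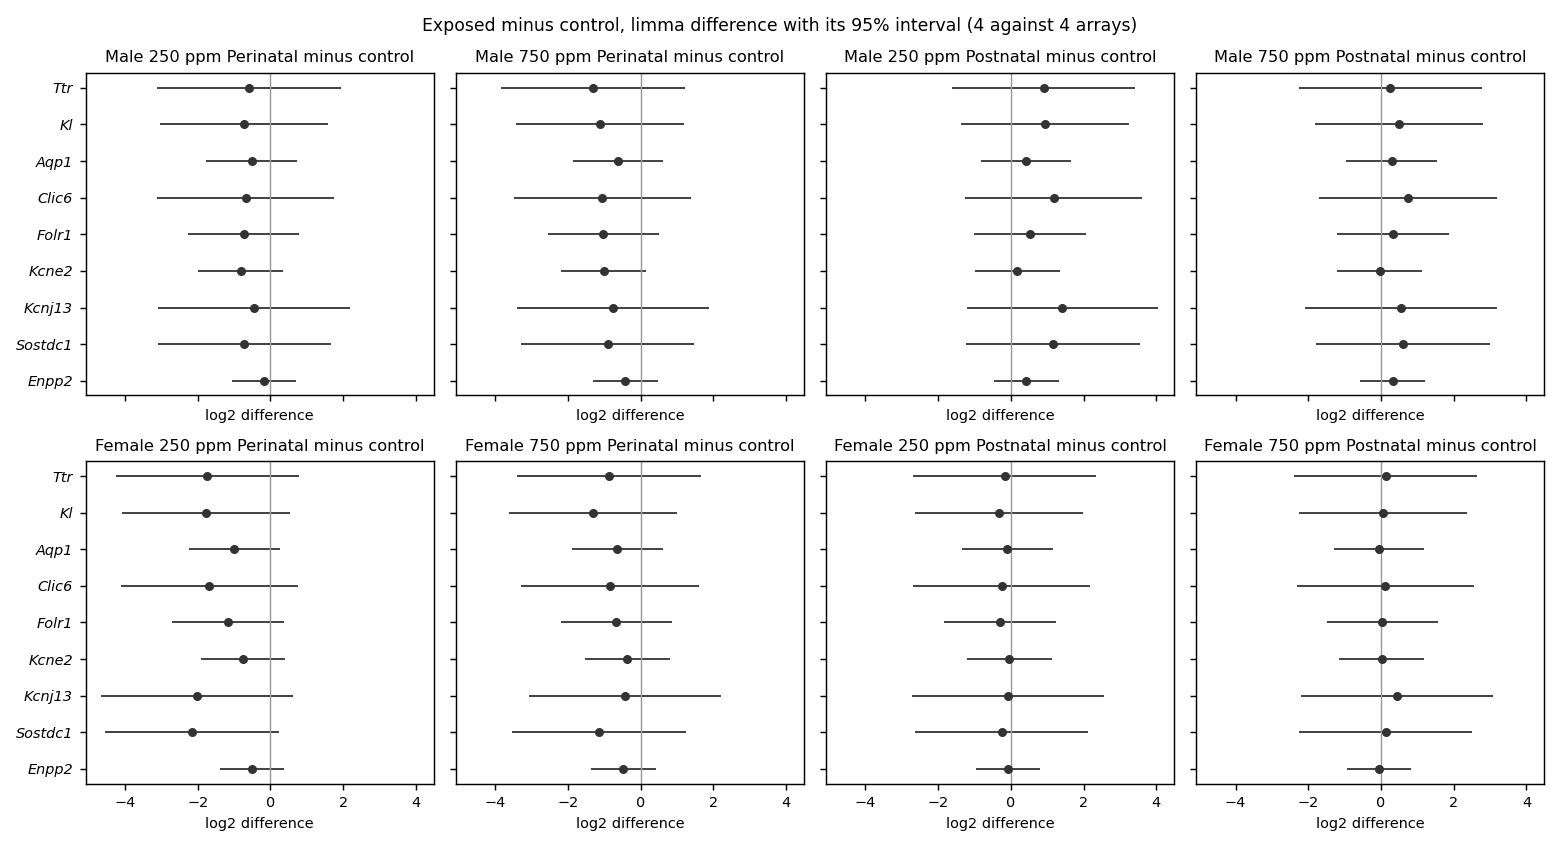
Difference in log2 signal between each exposed group and controls of the same sex label (points, 4 against 4 arrays) with its 95% confidence interval from limma, for the 9 genes in 8 contrasts. With all arrays kept, all 9 points lie below 0 in each perinatal panel, and all the intervals include 0.

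Between doses, the differences of 750 from 250 ppm lay below 0 for all 9 genes in males (medians -0.28 perinatally and -0.44 postnatally) and above 0 in females (0.50 and 0.33), and none passed the test. The share of all probe sets that passed was 0.0411%, 0.0103%, 0.0856% and 0 in that order, and the smallest adjusted p of the 9 genes was 0.781 (limma). At an unadjusted p under 0.05 there were 0 of 36 tests of these genes and 5.16% of all tests. For Ttr the sign turned in 3 of the 4 contrasts when 1 array was left out: to 0.36 in perinatal males without Male 750 ppm perinatal 1, to 0.23 in postnatal males without Male 750 ppm postnatal 3, and in postnatal females to -0.80 without Female 250 ppm postnatal 4 and to between -0.11 and -0.02 without Female 750 ppm postnatal 2, 3 or 4. The largest dose difference was 1.59, for Kcnj13 in perinatal females.

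Between windows, at equal dose and sex, the postnatal mean lay above the perinatal mean for all 9 genes in all 4 contrasts. The medians were 1.49 (Male 250 ppm), 1.35 (Male 750 ppm), 1.43 (Female 250 ppm) and 0.87 (Female 750 ppm). Without the compressed arrays, all of perinatal males, the male medians were 0.58 and 0.86, and the male Ttr differences fell from 1.49 to 0.29 at 250 ppm and from 1.56 to 0.49 at 750 ppm. None passed limma's test, with smallest adjusted p of 0.796, 0.313, 0.915 and 1, and the share of all probe sets that passed was 0.00342%, 0.175%, 0.0103% and 0.0548%. Exact permutation tests for Ttr gave 0.114, 0.229, 0.457 and 0.486 (4 against 4 arrays, two-sided).

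Pooled over sex and dose, a contrast added after the 4 had been seen, the mean of 16 postnatal arrays lay above that of 16 perinatal arrays by 1.64 ± 0.59 (SE) for Sostdc1, 1.52 ± 0.57 for Kl, 1.40 ± 0.62 for Ttr and 0.55 ± 0.22 for Enpp2. Sostdc1 had the largest difference of all 29214 probe sets, and Kl ranked 3. None of the 9 passed (smallest adjusted p = 0.27, limma), while 0.065% of all probe sets did. Unadjusted p was under 0.05 for 9 of 9 genes and for 12.6% of all probe sets. Without the 3 compressed arrays, which are all perinatal and all low in these genes, the Ttr difference was 0.83 and that of Sostdc1 1.27, and unadjusted p was under 0.05 for 1 of 9 genes (Aqp1, 0.0487) and 7.24% of all probe sets. The numbers in the sample titles run in blocks by group, though the blocks do not sort by window. What those numbers count is not given in the labels, and whether they reflect an order of handling was not tested.

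For sex and its interaction with lead the 9 genes gave no call. In 5 contrasts of females with males none passed (smallest adjusted p = 0.704, limma), where 0.103% and 0.705% of probe sets passed perinatally at 250 and 750 ppm and none did in the other 3. In 4 contrasts of the lead effect between sexes none passed either (smallest adjusted p = 0.868), where 0.0205% of probe sets passed at perinatal 750 ppm and none in the rest. Unadjusted p under 0.05 was found in 0 of 45 and 0 of 36 tests of these genes, and in 8.55% and 4.33% of all tests. At perinatal 750 ppm females lay above males for all 9 genes (median 0.34), and without the compressed arrays for 3 of them (median -0.04). In the mean over the exposed conditions, females lay below males by 0.11 (Enpp2, Kcne2) to 0.57 (Ttr) on the log2 scale. Without the compressed arrays that mean difference was -1.14 for Ttr. With all arrays kept it gave no call either (smallest adjusted p = 0.694, limma), where 0.0924% of all probe sets passed. With Kl as a covariate, so that arrays were compared at equal Kl, the difference for the other 8 genes shrank to between -0.13 (Ttr) and 0.09 (Folr1, Kcne2), again without a call (adjusted p of 0.461 to 0.85, limma), where 0.0993% of all probe sets passed.

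The wider choroid plexus was followed by 3 lists of 60 other genes, of which 52 were measured. Likeness to Ttr was taken as Pearson r between deviations from the group means over the 40 arrays, as a description, since all genes share the arrays. By that measure 33 of 52 (63.5%) exceeded 0.5, with a median of 0.64, against 2.79% of all genes and a median of -0.052.

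Of 20 transporters and pumps, 10 exceeded 0.5. Slc4a5 (0.93), Abca4 (0.81), Trpm3 (0.81), Slc13a4 (0.77) and Car14 (0.76), a membrane carbonic anhydrase, led them. Farthest from Ttr were the chloride channel Clcn2 (-0.26), the efflux pump Abcc4 (-0.12), the potassium channel Kcna1 (-0.09), Slc4a10 (0.02), Atp1b1 (0.05), a subunit of the sodium pump, Slc16a8 (0.14) and Abcc1 (0.15). Of 13 junction and membrane genes, 10 exceeded 0.5, among them Cldn2 (0.90), Tmem72 (0.84), Cltrn (0.79), Krt18 (0.76) and Cldn1 (0.73). Of 19 receptors, hormones and secreted factors, 13 did, with F5 (0.93), Ace (0.86), Prlr (0.85), Sulf1 (0.77) and Msx1 (0.75), a homeobox factor of the dorsal midline, in front. Htr2c, the serotonin receptor first known from the plexus and also made by neurons, was at 0.48 over all arrays and at 0.90 above the gap.

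Of the 52 wider genes, 1 passed limma's test in any of the 25 planned contrasts, in the Female 250 ppm contrast of windows, where 0.0103% of all probe sets passed. Over the 25 contrasts that share ran from 0 to 0.705%, so 1 call among tests of 52 genes in 25 contrasts carries little information. Slc29a4, a monoamine transporter, was 8.11, 8.07, 8.34 and 8.18 in Female 250 ppm perinatal rats and 8.62, 8.70, 8.75 and 8.73 in Female 250 ppm postnatal rats, a difference of 0.53 (adjusted p = 0.0431) with no overlap. Its likeness to Ttr was only 0.48. In the added pooled contrast of windows it rose by 0.24 (adjusted p = 0.0393), again alone among the 52, where 0.065% of all probe sets passed; 45 of the 52 lay above 0 with a median of 0.25, against a median of -0.014 over all probe sets. No other setting was run for Slc29a4.

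The 10 genes outside the set that were most like Ttr were Mfrp (0.93), F5, Slc4a5, Cldn2, Glycam1 (0.88), Ace, Prlr, Mdk (0.85), a heparin-binding growth factor, Tmem72 and Pla2g5 (0.82). Among them 6 came from the wider lists. Above the Ttr gap their r was 0.89 to 0.98 but for Glycam1, a mucin-like protein, at 0.59. The least like were Or2m12 (-0.64), Tm4sf4 (-0.61), Hdac4 (-0.61), Or5w12 (-0.60) and Ntmt1 (-0.60).

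Markers of neighbouring tissues differed in how far they went with Ttr. Of 13 genes of ciliated ependyma, the ventricle's lining, 8 exceeded 0.5, with a median of 0.61, led by Cfap126 (0.79) and Dnah12 (0.74); Foxj1, the regulator of motile cilia, was at 0.61 and ran from 7.58 to 8.16. The summed ependymal signal lay between 10.73 and 11.55 over the arrays, against 11.31 to 14.82 for the 9 genes. By group it was, for example, 10.81 to 11.02 in Male 750 ppm perinatal rats and 10.75 to 11.55 in Female 250 ppm postnatal rats. The part of ependyma in these results was not tested.

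Of 16 meningeal genes none exceeded 0.5 (median 0.22, summed signal 12.98 to 14.09). Thalamus and habenula gave 1 of 9 (Zic1, 0.65), striatum and septum 1 of 7 (Ppp1r1b, 0.51), endothelium and mural cells 2 of 12 (Slco1c1, 0.66, which the plexus also expresses, and Kdr, 0.63) and myelin 1 of 9 (Ugt8, 0.58). Red blood cells (0 of 5), astrocytes (0 of 8) and hippocampal neurons (0 of 12, median -0.03, summed signal 14.06 to 14.26) gave none. Ttr is also a liver product, and the 6 other genes of liver and plasma gave none (albumin, Alb, -0.09). Over the arrays above the Ttr gap alone, r was 0.23 for Zic1, 0.28 for Ppp1r1b, 0.34 for Slco1c1, 0.52 for Kdr and -0.29 for Ugt8.

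**Figure D5:**
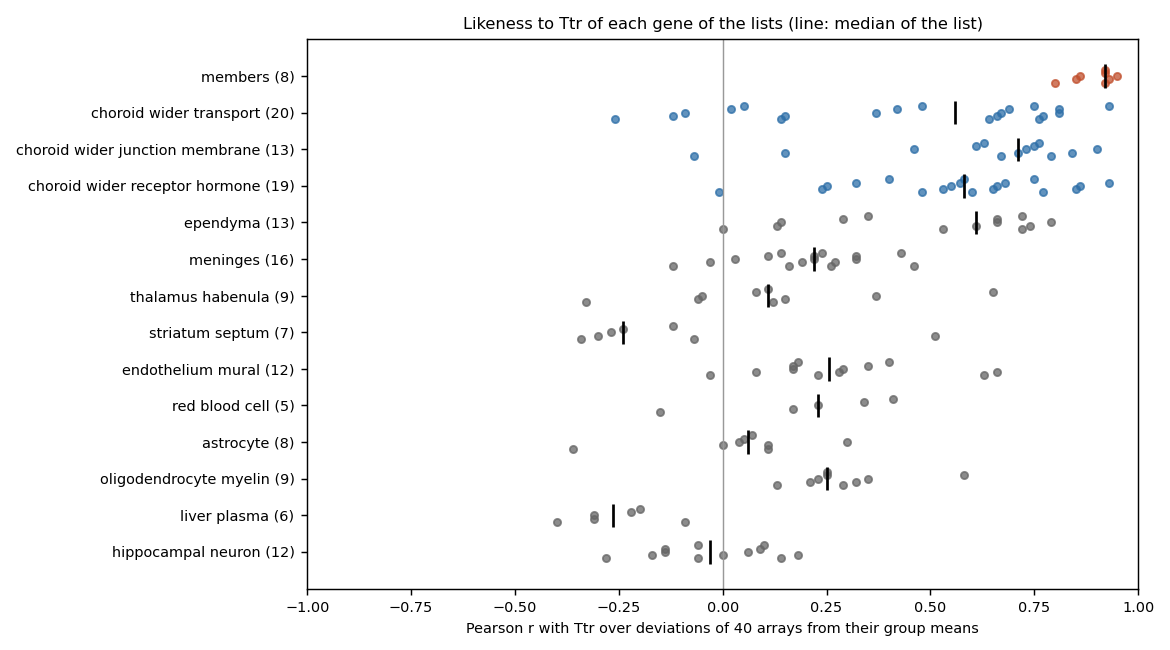
Pearson r with Ttr over deviations of the 40 arrays from their group means (horizontal axis) for each gene (points) of each list (rows, number of genes in brackets), with a tick at each list's median. The 8 other genes of the set have a median of 0.92, the 3 wider choroid plexus lists 0.56 to 0.71, ependyma 0.61, meninges 0.22 and hippocampal neurons -0.03.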

How the data were processed

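The 40 arrays (10 groups of 4) were used as deposited: log2 signals that the authors made with RMA, which corrects background, equalises array distributions and summarises probes, per the submitters' processing notes, which name RMA and Partek but no version. Values ran from 2.07 to 13.93. Of 29214 probe sets, 15310 carried 1 symbol, 323 several and 13581 none.

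Groups came from the labels. A limma 3.58.1 model (R 4.3.3, variance trend) with a mean per group gave 25 contrasts over all probe sets, with p-values adjusted by Benjamini-Hochberg within a contrast and a threshold of 0.05. The 3 contrasts pooled over windows, exposures and sexes, the last also with Kl as a covariate, and the correlations on each side of the Ttr gap were chosen after seeing the data. Permutation tests and correlations used Python 3.11.15. The genes and lists were chosen with earlier results of these data known. Genes outside the set were named by rule: the 10 most and 5 least like Ttr, the widest in spread of the wider lists and the 2 most like Ttr in each other list; any others, among them Slc29a4, Tph1, Crx and Gnat2, were singled out after their values were seen. The fit was tested on simulated data. Alternatives were another normalization, filter, weighting, moderation, sample set or test, and leaving out arrays. The number of arrays limits the precision.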

Additional observations from a re-analysis of the deposited data

Results flagged for a closer look

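In 23 of 90 sets of 4 arrays (9 genes in 10 groups) the highest or lowest array stood apart from the other 3, with a gap that took most of the range (Dixon's test); chance flags about 1 in 20 such sets, and since the 9 genes move together these are 5 arrays rather than 23 events. Female control 1 was lowest for Ttr (8.61), Kl (5.99), Clic6 (5.42), Kcne2 (6.18), Kcnj13 (5.64), Sostdc1 (5.93) and Enpp2 (10.69). It is 1 of the 3 controls whose Eif2s3 went against the label. Male 750 ppm postnatal 3 was lowest for Ttr (9.87), Kl (6.21), Clic6 (6.51), Kcnj13 (6.28), Sostdc1 (5.97) and Enpp2 (10.96). Female 750 ppm postnatal 1 was lowest for Ttr (9.16) and Clic6 (6.10). Female 250 ppm perinatal 3 was highest for Ttr (13.17), Kl (9.31), Aqp1 (8.23), Clic6 (9.37), Folr1 (8.02), Sostdc1 (8.95) and Enpp2 (12.11). Male 250 ppm perinatal 4 was highest for Kcne2 (8.08).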

How the results depend on the processing

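No gene of the set passed the test in any of 388 recounts under other settings, and none of 358 other values of the Ttr differences passed (smallest adjusted p = 0.213); 25 of the 358 had the opposite sign. With array weights, Ttr differed by -0.13 in Female 750 ppm postnatal rats, by 0.28 between doses in perinatal males and by -0.0035 between doses in postnatal females. Without the 3 controls at odds with their label it differed by -0.13 in Male and -1.06 in Female 750 ppm postnatal rats, and without the 3 compressed arrays by 0.61 in Male 250 ppm perinatal rats. Leaving out 1 array at a time gave Ttr differences from controls of -0.16 to 1.13 (Male 750 ppm postnatal), -1.34 to 0.93 (Female 250 ppm postnatal) and -1.05 to 1.16 (Female 750 ppm postnatal). Between doses the ranges were -1.38 to 0.36 (perinatal males), -0.96 to 0.23 (postnatal males) and -0.80 to 1.33 (postnatal females). The pooled difference between windows stayed above 0 for Ttr, at 1.14 to 1.68. Taken on deviations from group means, the median r of the other genes with Ttr was 0.78 above the gap (0.95 on the values) and 0.67 below it (0.34). Those means draw on arrays from both sides of the gap. The cause of these changes was not tested. No paired analysis was possible because the titles carry sample numbers that are not shared between groups.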

Other observations

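Glycam1, a mucin-like glycoprotein known from lymph node venules and milk, shared the choroid plexus genes' rise and fall but differed between the sexes above the Ttr gap. That pattern was noticed in the data and then tested on the same arrays. Over the exposed arrays above the Ttr gap Glycam1 was 7.66 to 10.80 in 9 females (median 9.22) and 6.08 to 8.34 in 11 males (median 7.66). Set against Kl in the same array, Glycam1 minus Kl had a median of -0.21 in those females (-1.0 to 0.61) and of -2.19 in those males (-2.34 to -0.78), so that the sexes overlapped. Below the gap exposed Glycam1 was 5.48 to 6.40 in males and 5.75 to 6.22 in females. Over all exposed rats the difference between females and males was 0.79 ± 0.48 (SE, adjusted p = 0.463, limma). At equal Kl, with Kl as a covariate of 1 slope for both sexes, it was 1.13 ± 0.19 (adjusted p = 0.0037, limma). That value averages over both sides of the gap. In that test 0.0993% of all probe sets passed. None of the 8 other genes of the set nor the 9 other genes most like Ttr passed it (adjusted p of 0.392, Prlr, to 0.915, Tmem72). The controls were not in that contrast. Their Glycam1 minus Kl was -2.08, 0.01, -1.89 and 0.03 in the arrays labelled Male and -0.26, -0.47, -2.13 and -0.71 in those labelled Female. The -2.13 belongs to Female control 3, whose Eif2s3 lay in the range of males. Of the other controls with Eif2s3 in that range, Male controls 1 and 3 had -2.08 and -1.89. Male control 2 and Female control 1, which lay below the Ttr gap, had 0.01 and -0.26. Below that gap exposed rats had -0.67 to -0.23 (males) and -0.48 to -0.06 (females), so controls there say little about the pattern. Above it, Female controls 2 and 4, not at odds with their label, had -0.47 and -0.71.

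Male control 4, whose Eif2s3 lay in the range of females, held transcripts near the floor elsewhere. Crx, a transcription factor known from photoreceptors and pineal cells, was 9.37 there against 5.06 to 5.75 in the other 39 arrays, and Gnat2, a transducin subunit of cones, was 10.13 against a median of 5.46. Tph1 was 12.29 against at most 7.39. These genes were picked after their values were seen, and no test was run on them.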
